A study of Mus musculus with 6 samples.

Results

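Monoamines such as dopamine, noradrenaline and serotonin are made by a short series of enzymes, packed into vesicles and oxidised again inside the cell. The 10 genes described here encode those steps: Th, Ddc and Dbh of catecholamine synthesis, Tph1 and Tph2 of serotonin synthesis, Gch1 of cofactor supply, the vesicular transporters Slc18a1 and Slc18a2, and the oxidases Maoa and Maob. All 10 were found among the 53379 gene identifiers counted, and 9 passed the filter on low counts, Dbh being the exception. The genes were chosen by their place in the pathway, and the pathway was selected on the higher level of Th with the JunD gRNA in these same libraries. Every difference between the guides given below for these genes is therefore a description and no independent support.

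RNA was measured in bulk by RNA-seq in Min6, an insulin-secreting line from a mouse insulinoma. The cells had received the lentiCRISPR v2 vector, which carries Cas9 and a guide RNA (gRNA), directed at Rosa26, a locus used as a negative control, or at JunD, a transcription factor of the AP-1 family. Each group had 3 libraries. Both groups were at passage 28, were harvested on day 8 after transduction and had spent 30 hours under glucolipotoxic conditions (high glucose and fatty acid), so no unstressed cells enter the comparison. Whether the cells were clones or pools, and whether the 3 libraries came from separate transductions, the labels do not say, and p-values measure only the spread between these libraries. In bulk RNA, fewer cells of a type and less RNA per cell cannot be told apart.

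Totals ran from 41071566 to 50024931 counts per library. Jund itself was lower in each JunD gRNA library (22.6, 25.1 and 26.9 CPM, counts per library total in the usual per-million scale) than in any Rosa26 gRNA library (39.3, 34.5 and 30.4 CPM). Its log2 fold change was -0.47 ± 0.11 (SE; edgeR quasi-likelihood adjusted p = 0.417), and -0.38 ± 0.08 (adjusted p = 0.00773) without Rosa26 gRNA replicate 1. That library stood apart from the rest, with a median absolute log2 deviation from the other libraries of 0.259 against 0.0798 to 0.141, so differences are given with it and without it. Its deviations were also tied to GC content (Spearman correlation -0.537 across genes, which are not independent replicates). The correlations were 0.115 and 0.0222 in the other Rosa26 gRNA libraries and 0.319, 0.279 and 0.448 in the JunD gRNA libraries. Each deviation was taken from the mean of the other 5 libraries, so Rosa26 gRNA replicate 1 entered the reference of the rest. Measured in this way, the GC trend differed by guide also among the libraries kept without that replicate. Values corrected for GC content and transcript length are given for some genes. For Jund the corrected log2 fold change was -0.67 ± 0.12 (edgeR adjusted p = 0.0696) with 6 libraries and -0.51 ± 0.07 (adjusted p = 1.66e-05) with 5. Of 14 beta-cell markers all were detected above 1 CPM, headed by Ins2. Of the 10 sympathetic and chromaffin markers, 4 had 0 counts in all 6 libraries, among them Hand1, Hand2 and the noradrenaline transporter gene Slc6a2, while Npy (502 to 1228 CPM), Chrna3 (2.67 to 4.47 CPM) and Prph (1.75 to 2.88 CPM) were detected. Among markers of dopaminergic and serotonergic neurons, En1 had 0 counts, and Slc6a3, Slc6a4 and Lmx1b had at most 4 counts in any library. Ret, at 160 to 179 CPM, and Fev, at 3.73 to 6.51 CPM, were the most abundant of those lists.

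Th encodes tyrosine hydroxylase, the rate-limiting enzyme of catecholamine synthesis, which makes L-DOPA from tyrosine. Ddc then makes dopamine from L-DOPA and serotonin from the 5-hydroxytryptophan that the tryptophan hydroxylases supply, and Dbh turns dopamine into noradrenaline. Both kinds of hydroxylase need tetrahydrobiopterin (BH4), whose synthesis starts with the enzyme of Gch1. The vesicular transporters VMAT1 (Slc18a1) and VMAT2 (Slc18a2) load amines into granules, and the monoamine oxidases of the outer mitochondrial membrane degrade amines that stay in the cytosol. Beta cells can make and store dopamine and serotonin beside insulin, and both amines act on insulin secretion.

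Since the study targets an AP-1 factor, the promoters of the 3 members with a full match to an AP-1 or cAMP response element (CRE) motif are shown, with that of Gch1 added because it was called beside Th. The windows are those of RefSeq on GRCm38.p6, 250 bases before to 50 after a gene's start, with 10 windows for 8 members (Ddc and Tph1 have 2 each, and Slc18a1 and Maob are not in the table). The motifs searched on both strands were TGANTCA (AP-1), TGACGTCA (CRE) and the shorter TGACG that lies within it, called the CRE core here. Of all 32851 windows, 7.81% held the AP-1 letters, 1.79% the CRE and 20.8% the core. Capitals mark the matches, and positions count from the start as 1, with negative numbers before it.

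Th, chr7:142899996-142900245, minus strand, the 250 bases before the start:
Th: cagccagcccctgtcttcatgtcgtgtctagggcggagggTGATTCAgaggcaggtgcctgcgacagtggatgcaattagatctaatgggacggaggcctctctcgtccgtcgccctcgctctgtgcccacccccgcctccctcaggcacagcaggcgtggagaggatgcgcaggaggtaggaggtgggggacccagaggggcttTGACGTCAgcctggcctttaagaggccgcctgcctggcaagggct

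Gch1, chr14:47189414-47189533, minus strand, the 120 bases before the start:
Gch1: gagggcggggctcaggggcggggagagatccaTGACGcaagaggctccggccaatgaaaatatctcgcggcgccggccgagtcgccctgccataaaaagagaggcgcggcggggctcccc

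Slc18a2, chr19:59260838-59260887, plus strand, 50 bases around the start:
Slc18a2: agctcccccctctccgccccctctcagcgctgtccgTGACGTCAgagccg

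Ddc, chr11:11898245-11898294, minus strand, a stretch of 50 bases further upstream in one of its windows, around positions -129 to -123:
Ddc: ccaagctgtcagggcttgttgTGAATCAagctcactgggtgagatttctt

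Th held both motifs, the AP-1 letters at positions -210 to -204 and the CRE at -45 to -38. Among the 8 members with a window, no other held both. The CRE of Slc18a2 spans the start, from -4 to 4. Gch1 held the core alone at -88 to -84. The core also occurred in the windows of Dbh, Tph1 and Maoa, and in the window of Tph2 none of the 3 motifs was found. These are matches of letters, not measured binding.

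The members differed in level by orders of magnitude, and Th stood above both tryptophan hydroxylase genes. Levels between genes are compared here per length, as CPM per kb of annotated exon averaged over the 6 libraries. Ddc stood highest at 77.6 CPM per kb (range over libraries 75.8 to 79.9), above 96.8% of the genes tested. Th followed at 57.8 CPM per kb (40.8 to 68.2), above 95.4% of them, and its libraries did not overlap those of Ddc. Maob (23.4, range 21.4 to 25.8) and Gch1 (22.5, range 18.7 to 25.9) came next and overlapped each other. Tph1 (5.15, range 4.51 to 6.36) and Maoa (4.80, range 4.24 to 5.74) also overlapped. The vesicular transporters were low, with Slc18a1 at 2.58 (2.33 to 2.77) and Slc18a2 at 0.791 (0.578 to 1.01), and Tph2 stood at 0.212 CPM per kb (0.125 to 0.304).

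Dbh was at the edge of detection. It had 0, 4 and 1 counts with the Rosa26 gRNA and 2, 4 and 9 counts with the JunD gRNA, 20 counts in all. A count of 3, the limit that a count of 0 allows, corresponds to 0.0600 to 0.0730 CPM in these libraries (counting error only). No fold change was computed for it. Pnmt, which makes adrenaline from noradrenaline, had 11 counts in Rosa26 gRNA replicate 1 and 0 in the other 5 libraries.

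**Figure D1:**
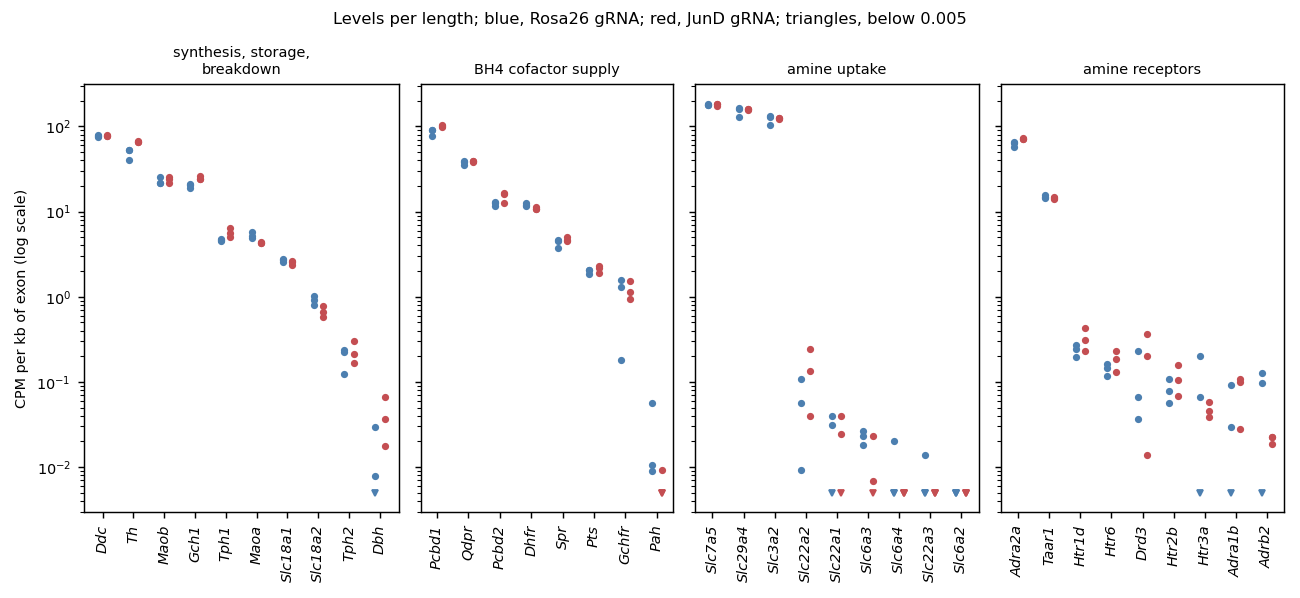
Level of the members and of the cofactor, uptake and receptor genes per library in CPM per kb of exon on a log axis, with Rosa26 gRNA libraries in blue and JunD gRNA libraries in red (3 points each) and triangles for libraries below 0.005. The members run from Ddc at 77.6 to Dbh at 0.0265 CPM per kb; for uptake and receptors, a few genes hold nearly all of the signal (only the more abundant receptor genes are drawn).

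With the JunD gRNA, the hydroxylase and cofactor genes Th, Gch1 and Tph1 were higher in every library than in any Rosa26 gRNA library, and Maoa and Slc18a2 were lower in every library. The other 5 members overlapped between the groups. Over all 17767 genes tested, groups did not overlap for 11.6% in the higher direction and 12.8% in the lower direction. The same 3 and 2 members were apart after scaling by the TMM factors. In edgeR with all 6 libraries, 0% of all genes were called higher and 0% lower, so no member was called either. An unadjusted p under 0.05 was reached by 5 of the 9 tested members and by 2119 of all genes tested. limma-voom called 0 genes, and DESeq2 called 67 with no member among them. Without Rosa26 gRNA replicate 1, Th and Gch1 were called higher and no member lower, where 1.45% of 18296 genes were called higher and 1.40% lower. With the GC and length correction on those 5 libraries, Th, Gch1, Tph1 and Maob were called higher, against 2.19% of all genes higher and 1.11% lower.

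Th (ENSMUSG00000000214.11, protein-coding, minus strand of chromosome 7 from 142892752 to 142931128 on GRCm38) stood at 96.4, 126 and 125 CPM with the Rosa26 gRNA and at 161, 154 and 156 CPM with the JunD gRNA. The groups did not overlap, and the lowest value was that of Rosa26 gRNA replicate 1, at 0.768 times the mean of the other Rosa26 gRNA libraries. The means were 116 ± 16.8 and 157 ± 3.58 CPM (SD, n = 3 each). The fold change was 1.37 with 6 libraries (log2 0.46 ± 0.11, SE) and 1.26 with 5 (log2 0.33 ± 0.04). This is the value on which the pathway was picked, so its calls are listed as a description and support nothing.

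Gch1 (ENSMUSG00000037580.10, minus strand of chromosome 14 from 47153895 to 47189413) stood at 117, 131 and 129 CPM with the Rosa26 gRNA and at 153, 153 and 162 CPM with the JunD gRNA. As for Th, Rosa26 gRNA replicate 1 was the lowest library and the groups did not overlap. The log2 fold change was 0.33 ± 0.07 (SE, edgeR adjusted p = 0.417) with 6 libraries and 0.27 ± 0.05 with 5, where Gch1 rose (adjusted p = 0.00131). On those 5 libraries Gch1 was also called in DESeq2, in limma-voom and after the GC and length correction.

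Tph1 (ENSMUSG00000040046.14, minus strand of chromosome 7 from 46644641 to 46672537), the tryptophan hydroxylase of peripheral tissues, stood at 27.9, 28.7 and 29.5 CPM against 34.3, 39.2 and 31.3 CPM. The Rosa26 gRNA libraries were close together and the JunD gRNA libraries spread over a wider range above them. Its log2 fold change was 0.30 ± 0.10 (adjusted p = 0.417) with 6 libraries and 0.27 ± 0.08 (adjusted p = 0.0604) with 5, and 0.32 ± 0.07 (adjusted p = 0.0075) on 5 with the GC and length correction. Tph2 (ENSMUSG00000006764.8, chromosome 10 from 115078641 to 115185022), the neuronal form, had 30, 18 and 31 counts against 20, 36 and 30. The log2 fold changes of 0.22 ± 0.40 (adjusted p = 0.80) with 6 libraries and of 0.38 ± 0.47 (adjusted p = 0.772) with 5 had errors larger than themselves at this depth.

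Ddc (ENSMUSG00000020182.16, minus strand of chromosome 11 from 11814101 to 11898144) was nearly level, at 356, 341 and 338 CPM against 341, 348 and 354 CPM. The groups overlapped, and the highest library was Rosa26 gRNA replicate 1. The log2 fold change was 0.03 ± 0.06 (adjusted p = 0.844) with 6 libraries and 0.04 ± 0.04 (adjusted p = 0.683) with 5. Within each library, the ratio of Th to Ddc per length was 0.511, 0.698 and 0.698 with the Rosa26 gRNA and 0.892, 0.837 and 0.834 with the JunD gRNA. This ratio needs no scaling between libraries, but it contains the Th values on which the set was picked. It is also not corrected for GC content, which was 54.1% for Th and 48.9% for Ddc. The ratio of Th to Gch1 overlapped between the groups (2.18, 2.54 and 2.57 against 2.80, 2.67 and 2.55).

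**Figure D2:**
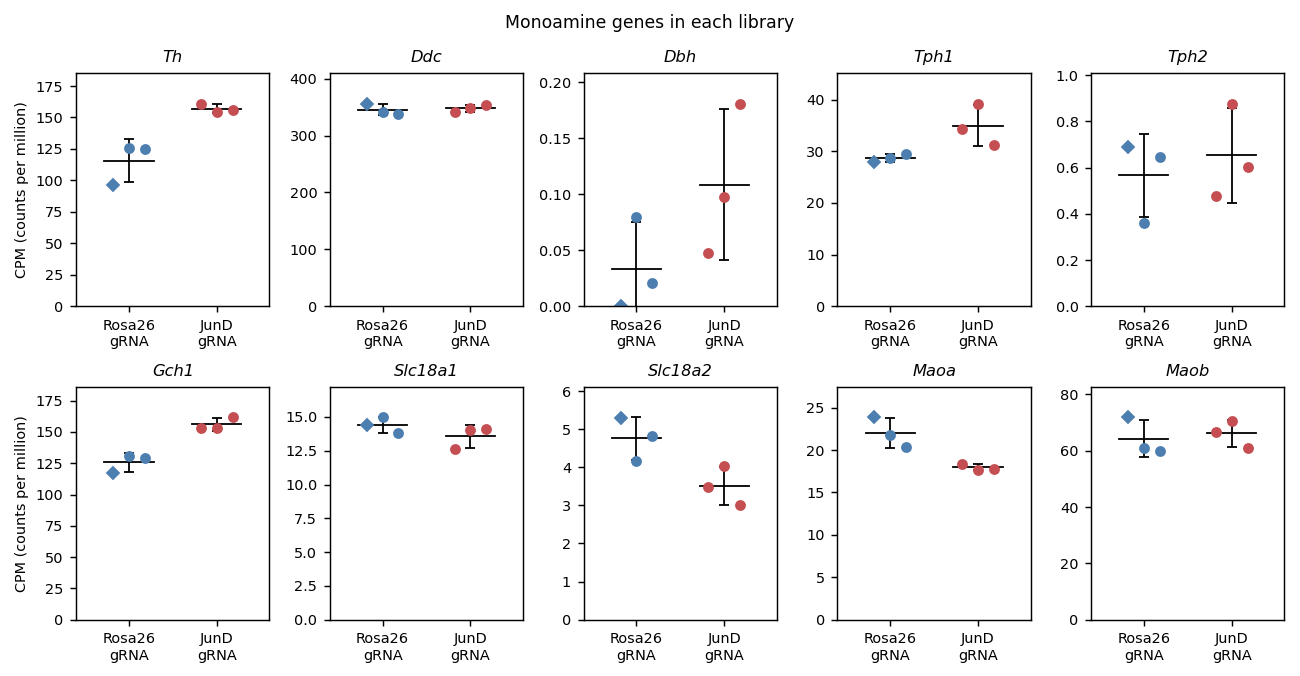
CPM of each member in each library (points; the diamond is Rosa26 gRNA replicate 1), with the group mean and SD as black lines and every axis starting at 0. Th, Gch1 and Tph1 lie higher in all 3 JunD gRNA libraries, Slc18a2 and Maoa lower, and the other 5 overlap.

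Of the storage genes, Slc18a2 (ENSMUSG00000025094.7, plus strand of chromosome 19 from 59260896 to 59296012) stood at 5.28, 4.16 and 4.83 CPM with the Rosa26 gRNA and at 3.49, 4.02 and 3.02 CPM with the JunD gRNA. The gap between the closest libraries of the groups was small, and only 146 to 231 counts per library lay behind these values. The log2 fold change was -0.42 ± 0.16 (adjusted p = 0.417) with 6 libraries and -0.36 ± 0.16 (adjusted p = 0.284) with 5. Slc18a1 (ENSMUSG00000036330.12, minus strand of chromosome 8 from 69037711 to 69089235) stood at 14.4, 15.0 and 13.8 CPM against 12.6, 14.0 and 14.1 CPM, with overlapping groups and a log2 fold change of -0.07 ± 0.09 (adjusted p = 0.74) with 6 libraries and -0.08 ± 0.09 (adjusted p = 0.753) with 5. Its span overlaps that of the abundant gene Atp6v1b2 on the other strand, with 0 exon bases shared in the annotation. Per length, Slc18a1 exceeded Slc18a2 in every library, by a ratio of 2.63 to 4.53.

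Maoa (ENSMUSG00000025037.6, plus strand of the X chromosome from 16619698 to 16687818), whose enzyme prefers serotonin and noradrenaline, stood at 23.9, 21.8 and 20.4 CPM with the Rosa26 gRNA and at 18.4, 17.7 and 17.8 CPM with the JunD gRNA. The groups did not overlap. Its log2 fold change was -0.28 ± 0.09 (adjusted p = 0.417) with 6 libraries and -0.23 ± 0.08 (adjusted p = 0.117) with 5. Its transcript has the lowest GC content of the members (40.4%), and after the GC and length correction these values were -0.08 ± 0.08 and -0.12 ± 0.08. Maob (ENSMUSG00000040147.14, minus strand of the X chromosome from 16709282 to 16817366), which lies next to Maoa, stood at 72.0, 61.1 and 59.8 CPM against 66.7, 70.7 and 61.0 CPM with overlapping groups. It had a log2 fold change of 0.06 ± 0.09 (adjusted p = 0.767) with 6 libraries and 0.13 ± 0.06 (adjusted p = 0.242) with 5, and 0.18 ± 0.05 (adjusted p = 0.0416) on 5 with the correction. The ratio of Maob to Maoa per length was 4.49, 4.19 and 4.38 with the Rosa26 gRNA and 5.42, 5.98 and 5.11 with the JunD gRNA, without overlap. This ratio is not corrected for GC content, which was 45.3% for Maob and 40.4% for Maoa.

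**Figure D3:**
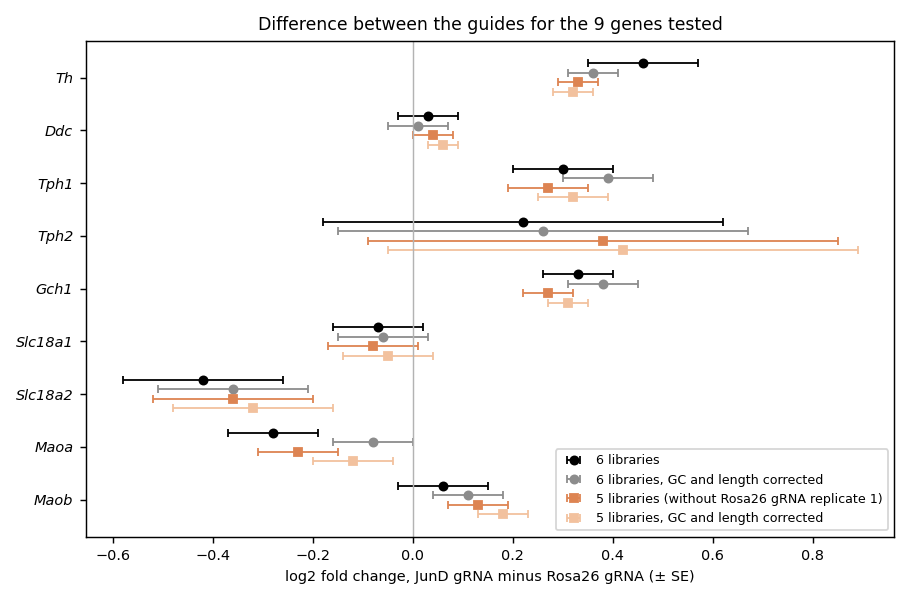
Log2 fold change (JunD gRNA minus Rosa26 gRNA, edgeR) with its SE for the 9 tested members, with 6 libraries (circles) and without Rosa26 gRNA replicate 1 (squares), each also after the GC and length correction (paler). Th runs from 0.32 to 0.46 over these fits, and Maoa moves from -0.28 to -0.08 when all 6 libraries are corrected.

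The remaining genes of the pathway were listed by role, 76 in all, and 34 were tested. With 6 libraries 0 of them were called. Without Rosa26 gRNA replicate 1, 2 were called higher (5.88%, beside 1.45% of all genes) and 0 lower, and the median log2 fold change of the 34 was 0.13 beside -0.003 for all genes tested. After the GC and length correction on those libraries 1 was called, and the medians were 0.08 and 0.023. Groups did not overlap for 6 of the 34 in the higher direction (17.6%, beside 11.6% of all genes) and for 3 in the lower (8.82%, beside 12.8%).

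Both called genes lie outside metabolism. Adra2a encodes the alpha-2A adrenergic receptor, through which noradrenaline restrains insulin secretion. It stood at 279, 311 and 315 CPM against 343, 345 and 352 CPM, and it rose on 5 libraries (log2 0.15 ± 0.04, edgeR adjusted p = 0.0304) but was not called there after the GC and length correction (adjusted p = 0.0833) or with 6 libraries (log2 0.22, adjusted p = 0.417). Insm1, a zinc-finger factor of endocrine and monoaminergic cells, rose on the 5 libraries by 0.18 ± 0.05 (edgeR adjusted p = 0.0444), and its adjusted p was 0.168 after the correction. On the same libraries limma-voom called Insm1 (adjusted p = 0.0346) and DESeq2 did not (adjusted p = 0.301). With 6 libraries its log2 fold change was 0.28 (adjusted p = 0.417). The trace amine receptor gene Taar1 stood at 15.6 to 17.3 CPM in all libraries. Of the 28 receptor genes, 25 were below 1 CPM in all libraries, the genes of dopamine receptors among them, and 8 had 0 counts throughout.

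Of 7 tested genes around BH4, none was called on 6 or 5 libraries, and their median log2 fold change on 5 was 0.04. Pcbd1, whose protein helps recycle BH4 and also binds HNF1 factors, stood at 62.5, 74.9 and 74.9 CPM against 81.0, 83.3 and 85.9 CPM. Its log2 fold change was 0.25 with 6 libraries (adjusted p = 0.417) and 0.16 with 5 (adjusted p = 0.0799; 0.0289 after the correction). Qdpr, the reductase that completes recycling, stood at 62.6 to 71.0 CPM with overlapping groups. Gchfr, whose protein inhibits the enzyme of Gch1, stood at 0.115 to 1.02 CPM.

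Uptake and later breakdown were carried by few genes. The amino acid transporter gene Slc7a5, which imports tyrosine and tryptophan, stood at 654 to 684 CPM, and Slc29a4, a low-affinity monoamine transporter of the plasma membrane, at 369 to 474 CPM. The high-affinity transporter genes Slc6a2, Slc6a3 and Slc6a4 had at most 4 counts in any library. The aldehyde reductase gene Akr1a1 stood at 297 to 359 CPM. None of the 4 tested uptake genes or the 6 tested breakdown genes was called on 6 or 5 libraries. Hdc and Aanat, for histamine and melatonin synthesis, were below 1 CPM in every library. Among transcription factors, Nr4a2, an activator of Th in dopamine neurons named here after its values were seen, stood at 51.7, 52.0 and 52.8 CPM against 47.1, 46.5 and 47.0 CPM. Its log2 fold change was -0.14 with 6 libraries (adjusted p = 0.428) and -0.16 with 5 (adjusted p = 0.133). Foxa2, likewise named afterwards, stood at 98.2, 114 and 111 CPM against 118, 122 and 130 CPM. For Foxa2 the log2 fold change was 0.2 on 6 libraries (edgeR adjusted p = 0.417) and 0.13 on 5 (adjusted p = 0.161). After the GC and length correction these were 0.05 and 0.08. Among the 9 tested transcription factors, 6 lay on the higher side in either uncorrected fit. The part of these factors in the level of Th was not tested.

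**Figure D4:**
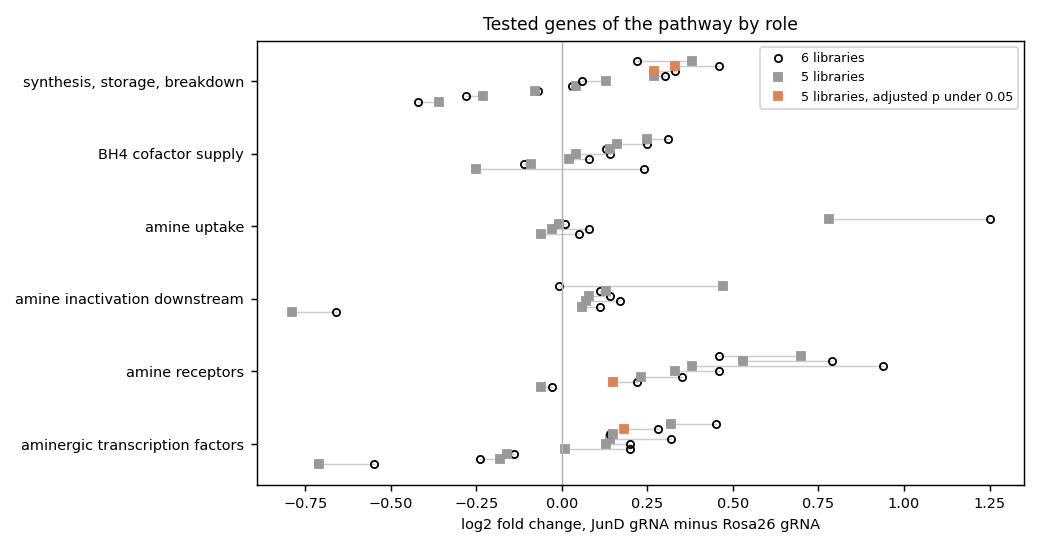
Log2 fold change (JunD gRNA minus Rosa26 gRNA) of the tested genes by role (Hdc is not drawn), with 6 libraries (open circles) and without Rosa26 gRNA replicate 1 (squares), joined by a line per gene. Orange squares are called at an adjusted p under 0.05 on the 5 libraries: Th and Gch1 among the members, Adra2a among receptors and Insm1 among transcription factors.

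Th lies in a gene cluster with the insulin gene Ins2 and the growth factor gene Igf2. Distances are measured from the ends of the annotated span of Th. On the side of Ascl2, Cd81 and Tssc4 that end (142931128) lies upstream of the RefSeq start used for the promoter (142899995). From that start these genes lie further away than given here. The nearest annotated genes, Gm39117 (35.2 kb away) and Ascl2 (35.7 kb), were nearly silent, with 2 and 60 counts over all libraries. Igf2, 226 kb away, stood at 87.8, 107 and 97.6 CPM against 122, 113 and 130 CPM and rose on 5 libraries by 0.26 ± 0.06 on the log2 scale (adjusted p = 0.0103; 0.00398 after the correction). Its span overlaps the antisense gene Igf2os, and whether counting used strand is not given in the labels. Ins2, 149 kb away, rose by 0.11 ± 0.03 (adjusted p = 0.0389; 0.0121 after the correction), and Tssc4, 138 kb away on the other side, by 0.16 ± 0.04 (adjusted p = 0.0469; 0.189 after the correction). With 6 libraries their log2 fold changes were 0.34, 0.40 and 0.32, and none was called (adjusted p = 0.417, 0.466 and 0.417). Cd81, 122 kb away on the same side as Tssc4, had overlapping groups and a log2 fold change of -0.01 with 6 libraries and -0.12 with 5 (adjusted p = 0.963 and 0.221). Whether the values of Th and these genes share a cause was not tested.

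The genes whose log2 CPM over the 6 libraries was most like that of Th, among 12374 compared, were Ddx54, Rrp36, Ap2a1, Atp2a3 and H2-T23, with Pearson correlations of 0.9974, 0.9972, 0.9970, 0.9968 and 0.9944. These are descriptions over 6 points that share the guide contrast and the low value of Rosa26 gRNA replicate 1. Their log2 fold changes with 6 libraries, 0.26, 0.34, 0.19, 0.21 and 0.40, were smaller than the 0.46 of Th.

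Markers of other cells were counted beside these results. Summed levels of the macrophage markers were 3.37 to 4.24 CPM with the Rosa26 gRNA and 2.39 to 3.59 CPM with the JunD gRNA. Most of this sum came from Cd68 alone (3.82, 3.96 and 3.05 CPM against 2.89, 2.19 and 2.80 CPM). The other 5 macrophage markers were below 1 CPM in all libraries. Cd68 was not called by edgeR with 6 libraries (log2 -0.44, adjusted p = 0.417) or with 5 (-0.41, adjusted p = 0.288). Fibroblast and endothelial markers summed to 3.27 to 5.76 CPM with the Rosa26 gRNA and 3.09 to 4.47 CPM with the JunD gRNA. Of the sympathetic and chromaffin list Npy, a neuropeptide gene, was called higher on 5 libraries (log2 0.13, adjusted p = 0.0307) and not on 6 (0.42 ± 0.25, adjusted p = 0.459), and its level in Rosa26 gRNA replicate 1 was 502 CPM against 1107 to 1228 CPM elsewhere. Of the alpha, delta and PP list, Ppy was called lower on 5 libraries (-0.70, adjusted p = 1.45e-05) and not on 6 (-0.35 ± 0.32, adjusted p = 0.602), with 10.1 CPM in Rosa26 gRNA replicate 1 against 28.4 and 27.8 CPM in the other Rosa26 gRNA libraries. The enterochromaffin markers, Tph1 and Slc18a1 among them, summed to 3224 to 5934 CPM with the Rosa26 gRNA and 5710 to 6571 CPM with the JunD gRNA, nearly all from Cck, and on 5 libraries 0 of them were called. Of 14 beta-cell markers 5 were called higher on 5 libraries, namely Ins2, Pdx1, Nkx6-1, Mafa and Slc2a2, and Iapp was called lower, beside 1.45% and 1.40% of all genes. With 6 libraries 0 were called, and the log2 fold changes of the 5 were 0.40, 0.34, 0.18, 0.58 and 0.19. After the correction on 5 libraries 6 markers were called higher and 0 lower, with Iapp at -0.02 (adjusted p = 0.799). The part of these shifts in the values of the monoamine genes was not tested.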

How the data were processed

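Each library's deposited table holds whole-number counts per gene, not normalized. The submitters' processing notes list TopHat2, featureCounts and mm10, while versions, annotation, strand setting and kit are not stated there. Symbols were matched for 53274 of 53379 identifiers, and positions, exon lengths and GC content came from GENCODE M21 on GRCm38. The members and gene lists were chosen with earlier results of these data known.

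JunD gRNA was compared with Rosa26 gRNA by edgeR's quasi-likelihood test (edgeR 4.0.16, R 4.3.3) on genes kept by filterByExpr, with TMM scaling, no covariate and Benjamini-Hochberg adjustment over all genes at 0.05. The SE is the log2 fold change over the square root of F. The fit without Rosa26 gRNA replicate 1 is given beside it. The GC and length correction entered, as offsets, splines (5 degrees of freedom each) of a library's log2 deviations. The splines ran over the GC content and log length of each gene's longest annotated transcript. CPM divide counts by the library total. Alternatives used DESeq2 1.42.0, limma-voom (limma 3.58.1), other scalings and filters, the replicate number as a block, and each library left out. The fits were tested on simulated data. Named were all members, up to 6 called genes per list or else the 2 most abundant, the 5 genes most like Th above 1 CPM (0.1 added before the log), and its nearest neighbours. Taar1, Gchfr, Hdc, Aanat, Pnmt, Cd81, Nr4a2, Foxa2, Chrna3, Prph, Cd68 and the genes given as at or near 0 were named after their values were seen. For marker lists without a call, summed levels or single markers are given. Some genes of these lists are not reported here. Replicate numbers were not read as pairs, since the labels do not say that they mark a shared culture.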

Additional observations from a re-analysis of the deposited data

How the results depend on the processing

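Counts of called genes were 0 in edgeR with all 6 libraries and also with other scalings, the stricter filter, the replicate block (0) and limma-voom. They were 67 in DESeq2, 86 without a count filter and 26 after the GC and length correction, and 0 to 523 when single libraries were left out, where only the omission of Rosa26 gRNA replicate 1 gave calls. On the 5 libraries that remained they were 604 with the correction (401 higher, 203 lower, in place of 266 and 257), 626 with DESeq2 and 588 with limma-voom. Th, on whose value the set was picked, was called without a count filter (log2 fold change 0.46), after the correction (0.36) and in all fits on the 5 libraries (0.32 corrected, 0.33 with DESeq2 and with limma-voom), and leaving out single libraries gave 0.33 to 0.52. Gch1 was called in all fits on the 5 libraries (0.31 corrected, 0.27 with DESeq2 and with limma-voom; 0.27 to 0.36 over single omissions). Tph1 was called on them with the correction (0.32) and with DESeq2 (0.27), and Maob with the correction (0.18). Tph2 ran from -0.03 to 0.40 over single omissions, turning sign without replicate 2 of either group. No member call was made with Rosa26 gRNA replicate 1 kept and another library left out. The direction of the other tested members held under all 19 alternatives. Of genes outside the set, Iapp (-0.01 with 6 libraries) was at 0.00 with limma-voom, without a filter and with the replicate block, at 0.12 with the correction and at -0.11 to 0.08 over single omissions, and Nkx6-1 was at -0.01 with the correction. The causes of these shifts were not tested. Same-numbered libraries had correlations of deviations of 0.0555, -0.0393 and 0.0742, so the numbers were not read as pairs, and the block changed no member's call. Low counts bound Tph2, Dbh and Slc18a2 most.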
